A study of Homo sapiens with 2 samples.

Results

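Small nucleolar RNA host genes are noncoding genes whose introns release small nucleolar RNAs (snoRNAs). The 30 genes described here are the windows named SNHG with a number, SNHG14 left out, together with GAS5, ZFAS1 and DANCR, out of 36814 gene-start windows in the deposited table. They were chosen by gene name. All 30 names were found in the RefSeq gene table of GRCh38.p14, which lists 63 snoRNAs or small Cajal body RNAs inside them. Those are 38 box C/D snoRNAs, 21 box H/ACA snoRNAs and 4 small Cajal body RNAs. SNHG27 and SNHG28 hold none in that table, so 28 of the 30 fit their name as annotated.

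The assay was PRO-seq (precision run-on sequencing), in which engaged polymerases extend their transcripts with biotinylated nucleotides. The cells were K562, an established human line of chronic myelogenous leukaemia with erythroid features. There were 2 libraries, both grown in the same medium, 1 untreated and 1 from cells in 0.1% DMSO, a drug solvent, for 1 h. Each group is therefore 1 library, and no value below has a replicate or a p-value. Every window spans 6000 bases of hg38 around an annotated gene start, and CPM are counts scaled to the same total for each library.

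In background terms, a snoRNA is cut from a spliced intron and guides the modification of ribosomal RNA. Box C/D snoRNAs guide ribose methylation and box H/ACA snoRNAs guide pseudouridylation. The spliced exons of most noncoding hosts are poor coding sequence and are degraded in the cytoplasm by nonsense-mediated decay, so the steady level of such an RNA says little of how often its gene is read. Many hosts belong, with ribosomal protein genes, to the TOP class, whose transcripts begin with a run of C and T (terminal oligopyrimidine). GAS5, named for its accumulation in growth arrest, ZFAS1 and DANCR are hosts that were given their names for other properties.

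A TOP run begins at the first transcribed base, so the start region is shown for the genes on which the values turn: the hosts read most densely, the hosts at either end of the library comparison, and ZFAS1 and SNHG1, whose windows cannot be read at the start. The RefSeq promoter table (GRCh38.p14) held 26 of the 30 genes, and SNHG6, SNHG9, SNHG15 and SNHG25 were not in it. Each line runs 5′ to 3′ on the gene's strand, from 40 bases before the RefSeq start to 40 bases from the start on. Capitals mark the longest unbroken run of C and T within 25 bases of the start and, where there is one, the letters TATAA beginning 40 to 20 bases before the start. Where runs were equally long, the earliest was taken.
SNHG7: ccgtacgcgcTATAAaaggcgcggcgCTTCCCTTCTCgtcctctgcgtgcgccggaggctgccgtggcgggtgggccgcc
SNHG5: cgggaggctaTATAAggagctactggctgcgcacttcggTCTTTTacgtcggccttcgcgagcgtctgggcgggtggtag
SNHG12: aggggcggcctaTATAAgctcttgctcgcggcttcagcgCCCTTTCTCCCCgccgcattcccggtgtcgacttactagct
SNHG8: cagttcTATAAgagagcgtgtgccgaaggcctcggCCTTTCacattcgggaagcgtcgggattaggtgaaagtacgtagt
SNHG19: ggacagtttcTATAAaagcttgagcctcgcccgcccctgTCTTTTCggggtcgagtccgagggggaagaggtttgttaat
ZFAS1: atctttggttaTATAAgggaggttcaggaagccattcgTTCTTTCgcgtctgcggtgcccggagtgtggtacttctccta
SNHG26: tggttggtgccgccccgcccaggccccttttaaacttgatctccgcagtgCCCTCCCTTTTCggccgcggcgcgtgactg
SNHG1: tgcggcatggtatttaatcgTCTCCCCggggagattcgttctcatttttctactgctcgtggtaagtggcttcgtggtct
SNHG30: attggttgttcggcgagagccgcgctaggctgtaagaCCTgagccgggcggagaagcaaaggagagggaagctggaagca

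The 9 stretches lie at chr9:136728145-136728224 (minus strand, SNHG7), chr6:85678694-85678773 (minus, SNHG5), chr1:28581834-28581913 (minus, SNHG12), chr4:118278722-118278801 (plus, SNHG8), chr16:2155319-2155398 (minus, SNHG19), chr20:49278602-49278681 (plus, ZFAS1), chr7:22854200-22854279 (plus, SNHG26), chr11:62855846-62855925 (minus, SNHG1) and chr17:35568074-35568153 (plus, SNHG30). The letters TATAA stood at that distance in 6 of the 26 host promoters (23.1%), those of SNHG5, SNHG7, SNHG8, SNHG12, SNHG19 and ZFAS1, against 3.91% of the 35116 promoters in the table. This motif was chosen after the sequences were seen, on the sense strand only, so the 2 shares are a description.

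Runs of C and T were longer in several hosts than in most promoters, though many of them do not lie on the RefSeq start and are then only runs near it. The longest run had a median of 7 bases in the hosts and 5 in all promoters. A run of 10 or more was present in 6 of the 26 (23.1%), SNHG4, SNHG7, SNHG12, SNHG18, SNHG26 and SNHG29, against 10.3% of all promoters. Of these 6 the runs of SNHG4, SNHG12 and SNHG18 cover the start base (11.5% of the 26, against 2.76% of all promoters). With the start base as position 0, those of SNHG7 and SNHG29 lie before it, at -14 to -4 and -17 to -5, and that of SNHG26 after it, at 10 to 21. Only the longest run of each promoter was located. In the printed lines a shorter run covers the start base of SNHG7 (tcctct) and of SNHG26 (tctcc). The longest run also covers the start base in the printed lines of SNHG5, SNHG8, SNHG19 and ZFAS1. That of SNHG8 lies at -5 to 0, so it ends on the start base and does not begin there. The marked run of SNHG1 lies at -20 to -14 and that of SNHG30 at -3 to -1. SNHG1 also holds an equally long run after the start (tttttct) and a shorter one that covers the start base (ttctc). Whatever its length, the longest run covers the start base in 8 of the 26 (30.8%) and in 7.88% of all promoters, a count added after the data were seen. SNHG18 had the longest run, 22 bases, and SNHG22, SNHG27 and SNHG30 the shortest, 3 bases each. Host promoters had a median of 26 CG pairs in 300 bases against 14, and a median GC content of 62.5% against 58.7%.

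Other motifs were searched on both strands of the 300 bases, which run from 250 before to 50 from the start on. The GC box CCGCCC was found in 20 of 26 host promoters (76.9%) and in 45% of all. The E-box CACGTG, a site that MYC can bind, was found in SNHG7 and SNHG30, 7.69% against 7.26%. CCAAT was found in 30.8% against 34.6%, CGGAAG in 23.1% against 19.5%, CTTTCC in 38.5% against 26.3%, and TATAAA, which overlaps TATAA, in 15.4% against 11.5%. The palindromic ZBTB33 and NRF1 motifs, of 10 letters each, were found in no host promoter and in 0.424% and 1.24% of all. The promoter of SNHG7, the host with the highest ratio between the libraries, is shown whole (chr9:136728135-136728434, minus strand), with the searched motifs it holds (CCGCCC or its reverse complement, CACGTG and TATAAA) in capitals.
SNHG7 promoter: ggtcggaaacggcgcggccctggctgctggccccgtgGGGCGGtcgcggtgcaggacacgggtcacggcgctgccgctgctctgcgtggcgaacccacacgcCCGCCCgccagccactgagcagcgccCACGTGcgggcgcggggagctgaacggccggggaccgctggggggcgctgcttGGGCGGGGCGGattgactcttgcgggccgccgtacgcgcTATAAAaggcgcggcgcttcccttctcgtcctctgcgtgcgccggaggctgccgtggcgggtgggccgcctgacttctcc

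A window of 6000 bases often reaches the start of another gene, and this decides which hosts the table can measure. All 1154 windows in the series without a base of their own held 0 reads, so reads in bases shared by 2 windows are absent from the counts, whatever the strand of the windows. The strand setting of the counting is not given in the sources used here. Reads were lost to windows on the opposite strand too, so the counts are to be read as not separating the strands. A level below is therefore not that of the host's strand alone. Of the 30 hosts 19 shared bases with another window, against 38.8% of all windows, and 14 had under 1000 bases of their own, as 23.7% of all windows did. The other groups were 13 hosts with at least 5000 own bases and 3 with 1000 to 5000. SNHG9 and SNHG21 had no base of their own, and their 0 reads are therefore no measurement.

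In none of the 17 hosts with under 5000 own bases did the own bases include the annotated start. In 13 of the 17 a gene on the opposite strand began inside the window. In 8 of these it began upstream within 500 bases, a head-to-head arrangement. SNHG1 has the start of SLC3A2, which codes for the heavy chain of an amino acid transporter, 149 bases upstream, SNHG16 has AC015802.4 at 81 and SNHG22 has ACAA2 at 70. SNHG9 has RPS2, a ribosomal protein gene that hosts snoRNAs itself, 118 bases upstream. In 5 others the opposite gene began downstream of the annotated start, as ZNFX1 does by 248 bases at ZFAS1 and ZBTB37 by 800 at GAS5. All these distances are from the annotated start in the file. The RefSeq start of ZFAS1 lies 464 bases downstream of that start, so ZNFX1 begins upstream of the RefSeq start. In the other 4 the neighbour lay on the same strand: RCC1 begins 37 bases before SNHG3, MATR3 350 before SNHG4 and LINC01618 10 before DANCR. SEC14L1 begins 2033 bases after the annotated start of SNHG20, whose RefSeq start lies 1927 bases downstream of the annotated one.

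**Figure D1:**
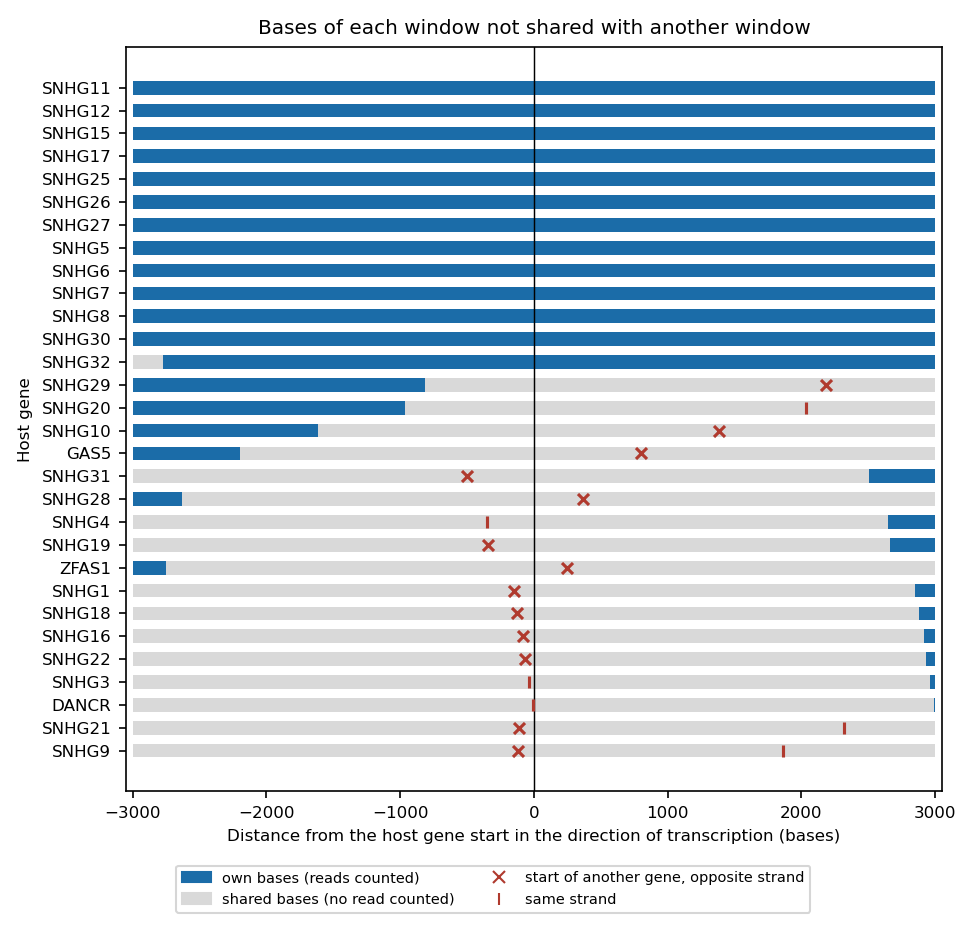
Map of the 30 host gene windows along the distance from the annotated start (bases, direction of transcription), with bases of the window's own in blue, shared bases in grey and starts of other genes as red marks (cross for the opposite strand, bar for the same strand). The 13 uppermost windows hold at least 5000 own bases; in the other 17 no own base lies at the start.

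Where such a host has reads, they come from the edge of its window. In 7 of the 17 the own bases lie wholly outside the RefSeq gene, and in 8 they lie inside it. The own bases of GAS5 are the 801 bases at positions -3000 to -2200 from its start, within ZBTB37, and held 3 untreated and 8 DMSO reads. None of the 11 snoRNAs listed within GAS5 lies in them. ZFAS1 had 0 and 6 reads, over 249 bases that lie upstream of the start and within ZNFX1. DANCR had 0 and 1 reads over 10 bases, and SNHG16 2 and 5 over 80. These counts describe the window edges, and say nothing of how strongly these 4 genes were read.

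SNHG1 was the one host with a snoRNA in a short own stretch. Its 148 own bases, 2852 to 2999 after the start, overlap SNORD22, 1 of its 8 box C/D snoRNAs. They held 3 untreated and 55 DMSO reads, which is 1.40 CPM (95% exact Poisson interval 0.290 to 4.10) and 13.2 CPM (9.97 to 17.2). SNHG3 held 6 and 38 reads over 37 bases and SNHG4 9 and 24 over 350, both inside the gene. All 37 also lie in RCC1, and all 350 in MATR3 and LOC124901081, so these reads cannot be assigned to the host alone. SNHG29 held 19 and 77 reads over 2186 bases upstream of its start, which include the end of TRPV2. SNHG10, host of SCARNA13, held 2 and 5 reads over 1387 bases upstream, within GLRX5.

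SNHG18 and SNHG31 had 0 untreated and 2 DMSO reads each. SNHG20, SNHG22 and SNHG28 had no read in either library over 2033, 69 and 368 own bases. With SNHG9 and SNHG21 this makes 5 hosts without a read, and 20.5% of all windows had none. A count of 0 allows up to 3 reads as a one-sided 95% limit, which is 1.40 CPM in the untreated and 0.722 CPM in the DMSO library. The two-sided interval used for the other levels would reach 1.73 and 0.888 CPM, as it does for SNHG20. These intervals and limits cover counting error only, since reads carry no molecular identifiers.

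The hosts with a readable window were among the most densely read gene starts of the table. Of the 13 with at least 5000 own bases 12 passed the floor used for ratios, at least 5 CPM as the mean of both and 100 reads in their sum, as 24.4% of all windows with that many own bases did. The median of the mean CPM over these 13 was 78.4, and 1.20 over all windows of that kind. All 13 reached 1 CPM in both libraries, against 42.7% of such windows. Over all 30 hosts 19 did, against 34.7% of all windows, and among the 14 with under 1000 own bases 5 did, against 8.90%. The 13 wide windows carried 96.7% of all host reads, which were 1653 untreated and 10567 DMSO reads over the 30 genes.

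**Figure D2:**
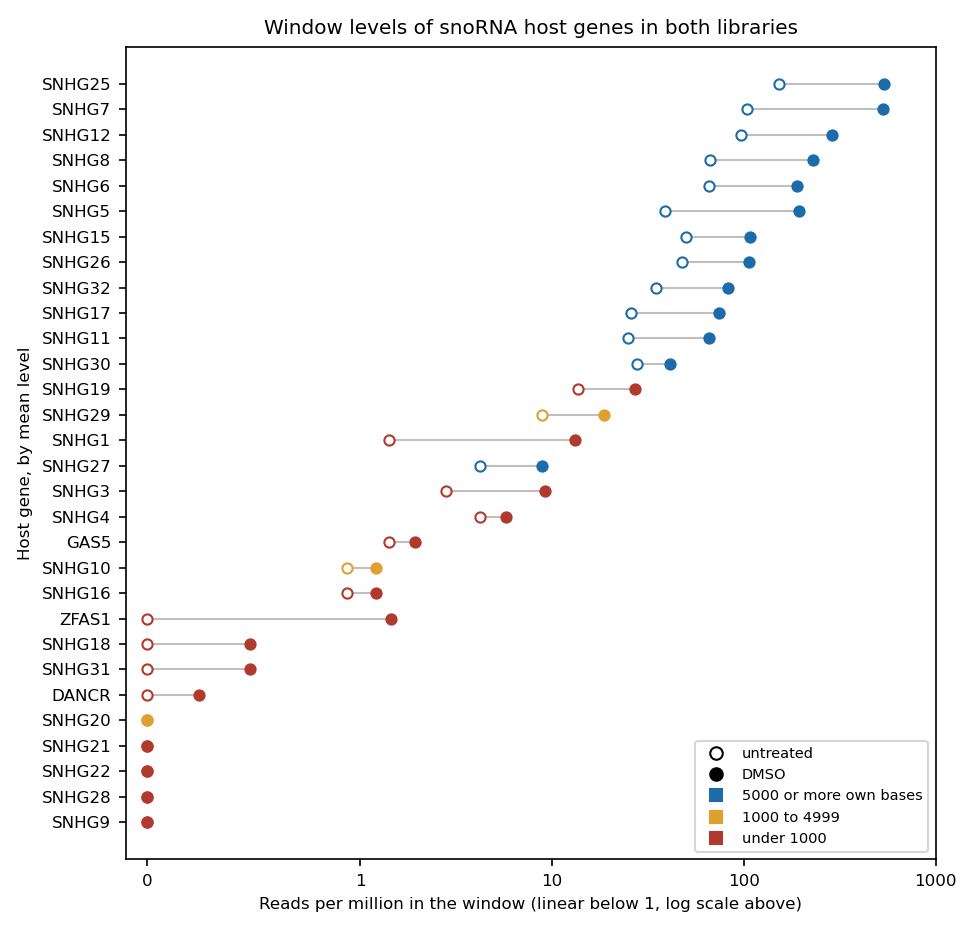
Level of each of the 30 host gene windows in the untreated library (open circles) and the DMSO library (filled circles), in CPM, linear below 1 and logarithmic above, coloured by the number of bases that the window shares with no other. The hosts with at least 5000 own bases take the first 12 places and 1 lower place, SNHG27.

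CPM rest on library totals, of which ribosomal RNA and mitochondrial windows took 75.4% untreated and 45.9% with DMSO. A gene's CPM in the 2 libraries therefore do not compare them, and the DMSO value is the higher one in every host that has reads. The order of hosts within a library is free of this. All wide windows have nearly equal length, so their levels are also given per kb of own bases.

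SNHG25 (ENSG00000266402.3, chr17:64142970-64148969), host of SNORD104, was the highest, with 327 untreated and 2237 DMSO reads. Its level was 153 CPM untreated (interval 137 to 171) and 538 CPM with DMSO (516 to 561), or 25.5 and 89.7 CPM per kb. The RefSeq gene is 340 bases long, and the window also holds SNORA50C and part of TEX2, so the reads cannot be assigned to SNHG25 alone. SNHG7 (ENSG00000233016.7, chr9:136725185-136731184), host of SNORA17A and SNORA17B, had 222 and 2216 reads, 104 CPM (90.7 to 119) and 533 CPM (511 to 556). Of its bases 3000 lie in the RefSeq gene, and 3000 lie in LOC124900276, a gene annotated as protein-coding, so these reads cannot be assigned to SNHG7 alone either. In the DMSO library the intervals of SNHG25 and SNHG7 overlapped, while in the untreated library SNHG25 was higher beyond counting error. Together these 2 genes held 40.9% of all host reads.

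SNHG12 (ENSG00000197989.14, chr1:28580133-28586132), host of SNORA16A, SNORA44, SNORA61 and SNORD99, followed with 207 and 1201 reads, 96.9 CPM (84.1 to 111) and 289 CPM (273 to 306). The RefSeq start in the promoter table lies 1259 bases downstream of the window's centre, and the RefSeq gene as listed begins upstream of that start. Of its 4446 bases 2851 lie in the window, and SNORA61 and SNORD99 lie outside it. SNHG8 (ENSG00000269893.8, chr4:118275709-118281708), host of SNORA24, had 143 and 954 reads, 66.9 and 230 CPM, and part of PRSS12 lies in its window. SNHG6, host of SNORD87 on chromosome 8, had 140 and 789 reads, 65.5 and 190 CPM. Of its bases 2984 lie in MCMDC2 and 2143 in the RefSeq gene of SNHG6, and SNORD87 lies outside the window. The reads of SNHG8 and SNHG6 cannot be assigned to these hosts alone. SNHG8 and SNHG6 did not differ beyond counting error in the untreated library (56.4 to 78.9 and 55.1 to 77.3 CPM), and in the DMSO library SNHG8 was higher (215 to 245 and 177 to 204 CPM).

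SNHG5 (ENSG00000203875.12, chr6:85675933-85681932), host of SNORD50A and SNORD50B, had 83 and 810 reads, 38.9 CPM untreated (30.9 to 48.2) and 195 CPM with DMSO (182 to 209). It ranked with SNHG6 in the DMSO library, where the intervals overlap, and below it in the untreated one. SNHG15, host of SNORA9, had 106 and 445 reads, and SNHG26, host of SNORD93, 102 and 443. These 2 genes on chromosome 7 were indistinguishable in both libraries, with 49.6 and 47.7 CPM untreated and 107 CPM each with DMSO.

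SNHG32, host of SNORD48 and SNORD52, had 74 and 345 reads, 34.6 and 83.0 CPM. SNHG17 and SNHG11 are neighbours on chromosome 20, transcribed away from each other, and together host 5 members of the SNORA71 family and SNORA60. SNHG17 had 55 and 310 reads and SNHG11 53 and 272, or 4.29 and 4.13 CPM per kb untreated and 12.4 and 10.9 with DMSO, which is no difference beyond counting error. LOC124904958, annotated as protein-coding, covers 4307 bases of the window of SNHG17, so those reads cannot be assigned to SNHG17 alone. SNHG30, host of SNORD7, had 59 and 172 reads, 27.6 and 41.4 CPM. In the DMSO library it was the lowest wide window past the floor, and in the untreated one SNHG17 and SNHG11 were lower, at 25.7 and 24.8 CPM. Its window also holds RPL39P32, a ribosomal protein pseudogene.

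SNHG27 stood apart from the other wide windows. It had 9 and 37 reads, 0.702 and 1.48 CPM per kb, and has no snoRNA in RefSeq. Its RefSeq start lies 37251 bases downstream of the annotated start in the file, so its window does not hold the RefSeq gene. SNHG19, host of SNORD60, was past the floor with 29 and 113 reads although it has only 339 own bases. These lie 2661 to 2999 bases after its start, beyond the end of the 577-base RefSeq gene and within RAB26. Their density of 40.04 and 80.2 CPM per kb therefore does not describe SNHG19 itself.

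The comparison of DMSO with untreated cells is a comparison of 2 libraries here. SNHG7 and SNHG5 were the hosts with the highest ratios past the floor, just over 2-fold higher with DMSO than the median window, and SNHG30 had the lowest. The ratio is the log2 of DMSO over untreated reads after TMM scaling (edgeR), less the median of all 6591 windows past the floor. That median is itself 0.31 under TMM and 1.27 with library totals, so with library totals and no centring every host past the floor is higher with DMSO. Past the floor were 13 of the 30 hosts, and 17.9% of all windows. Of these 13 hosts 2 lay at least 2-fold higher, against 7.04% of all windows past it, and 0 lay at least 2-fold lower, against 7.97%. With a threshold of 1.5-fold 1 host, SNHG30, was lower. The hosts' median was 0.26, with 8 above the median window and 5 below it. By construction all windows past the floor divide evenly around it. SNHG29, just outside the floor with 96 reads, stood at -0.22, and SNHG19, the least read inside it with 142, at -0.28.

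SNHG7, at 222 untreated and 2216 DMSO reads, stood at 1.08 (95% Clopper-Pearson interval 0.88 to 1.29), 2.11-fold above the median window. SNHG5, at 83 and 810 reads, stood at 1.05 (0.72 to 1.39). Neither interval lies wholly above 2-fold, and both cover counting error only. Neither gene reached 2-fold when the median was taken over windows that hold their RefSeq start (0.95 and 0.92) and at a floor of 20 CPM and 400 reads (0.96 and 0.93). With no floor, where the median is taken over all windows with a read, they stood at 0.69 and 0.65. The 2 hosts carry different classes of snoRNA, box H/ACA in SNHG7 and box C/D in SNHG5.

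SNHG25 stood at 0.54 (0.37 to 0.71), SNHG8 at 0.50 (0.25 to 0.76) and SNHG12 at 0.30 (0.08 to 0.52). With SNHG7 and SNHG5 these made 5 of 13 hosts whose intervals lay wholly above the median window, against 22.5% of all windows past the floor. The intervals of 7 others held the median: SNHG6 at 0.26, SNHG17 at 0.26, SNHG11 at 0.12, SNHG32 at -0.02, SNHG26 at -0.12, SNHG15 at -0.17 and SNHG19 at -0.28. SNHG30 alone of the 13 lay wholly below it, at -0.69 (-1.13 to -0.24), against 24.5% of all windows past the floor.

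**Figure D3:**
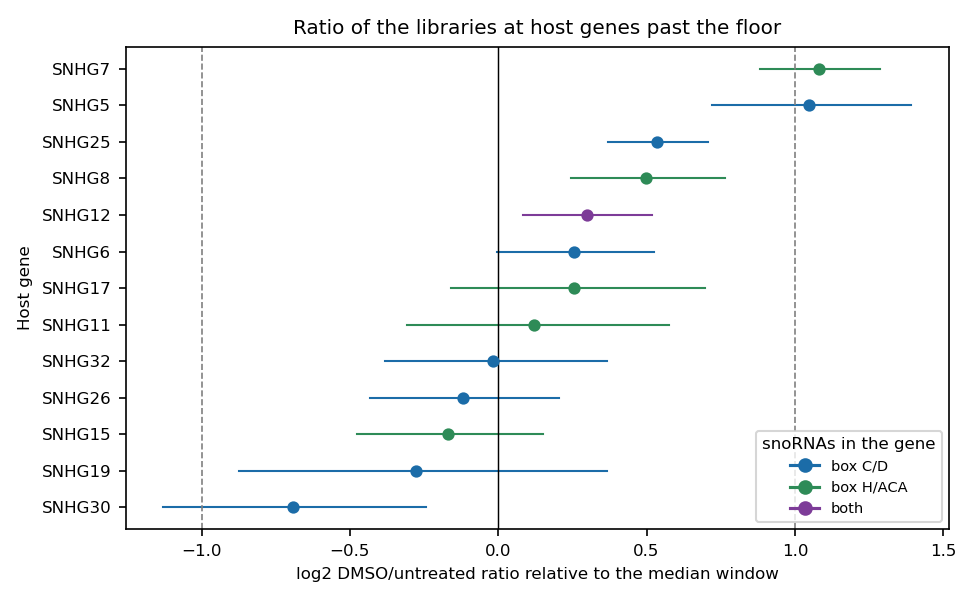
The log2 DMSO/untreated ratio of the 13 host genes past the floor, relative to the median window, with 95% Clopper-Pearson intervals for counting error and colours for the class of snoRNA in the gene. Points run from -0.69 at SNHG30 to 1.08 at SNHG7; dashed lines mark 2-fold in either direction.

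The median ratio of the hosts was higher in groups with more reads. The 6 hosts with 600 reads or more had a median of 0.52, and all 874 windows with that many reads had 0.13. Within these 6 the ratio did not follow the count, with SNHG12 at 0.30 with 1408 reads and SNHG5 at 1.05 with 893. The 5 hosts with 300 to 599 reads had a median of -0.02 against 0.08 for the 1774 windows of that range. DMSO reads make up most of the count and so enter both quantities. The 2 hosts with fewer reads, SNHG19 and SNHG30, are the lowest of the 13. Their median was -0.48, against -0.09 for the 3943 windows past the floor with fewer than 300 reads. The counted bases of SNHG19 lie outside its gene. Of all windows with 600 reads or more 4.92% lay at least 2-fold higher, among them SNHG7 and SNHG5.

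Hosts of the 2 classes of snoRNA overlapped. The 7 hosts of box C/D snoRNAs alone ran from -0.69 to 1.05 with a median of -0.02, and 3 of them lay above the median window. SNHG19, at -0.28, is among these 7 although its counted bases lie outside its gene. The median without it was not computed. The 5 hosts of box H/ACA snoRNAs alone ran from -0.17 to 1.08 with a median of 0.26, and 4 lay above. SNHG12, which carries both, stood at 0.30.

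Among the hosts below the floor, SNHG1 stood at 1.88 (interval 0.34 to 4.28), from 3 untreated reads. Its partner SLC3A2, whose own bases lie on the far side of the shared start, had 4 and 4 reads. SNHG3 stood at 0.41 (-0.83 to 1.96) and SNHG4 at -0.81 (-1.98 to 0.47), and both intervals hold the median. Their reads come from bases that also lie in RCC1 and MATR3. For GAS5, SNHG10 and SNHG16, with 2 or 3 untreated reads, the intervals reached past 2-fold in both directions. For the hosts with 0 untreated reads no fold is given. Of the neighbours that share bases with a host, AC093484.4 beside SNHG29 was past the floor and stood at 0.22, as were SEC14L1 beside SNHG20 at -0.65 and NDUFB10 beside SNHG9 at -0.61.

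Protein-coding genes that also carry snoRNAs were compared in the same way. Of the 40 listed 16 had under 1000 own bases and 22 passed the floor. Of these 22, 2 lay at least 2-fold higher and 1 at least 2-fold lower, near the 7.04% and 7.97% of all windows past the floor, with a median of 0.15 and 17 above the median window. The highest were IPO7, an importin, at 1.16 with 33 and 350 reads, and WDR43, a factor of ribosomal RNA processing, at 1.04 with 38 and 370. The lowest were HSPA9, a mitochondrial chaperone, at -1.14 with 120 and 256 reads, and RACK1, a protein of the small ribosomal subunit, at -0.92 with 33 and 82. The window of RACK1 has 1590 own bases and does not hold its RefSeq start. The difference between noncoding and coding hosts was not tested, since genes are not replicates.

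Of the genes for proteins that bind or build snoRNPs, the particles in which snoRNAs work, none that passed the floor lay past 2-fold. Among all windows past the floor 7.04% lay at least 2-fold higher and 7.97% at least 2-fold lower. With so few genes, none is near those shares and is no result about them. All 4 box C/D core genes passed the floor, with a median of 0.05. NOP56, itself a snoRNA host, stood at 0.52 with 165 and 1113 reads, the methyltransferase gene FBL at 0.16, SNU13 at -0.07 and NOP58 at -0.28. Of the box H/ACA core genes 2 of 4 passed. DKC1, the pseudouridine synthase and a host too, stood at 0.15 and NHP2 at -0.91 with 109 and 274 reads. NOP10 had no base of its own and GAR1 had 99. Of the 10 assembly factors 3 passed, NAF1 at 0.10, NOLC1 at -0.08 and ZNHIT6 at -0.38.

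A list of 9 genes held factors of nonsense-mediated decay and LARP1, which binds TOP transcripts, and 4 of them passed the floor with a median of 0.25. UPF1, the helicase of the decay pathway, stood at 0.74 with 59 and 466 reads, UPF3B at 0.35, UPF3A at 0.14 and UPF2 at -0.31. LARP1 was below the floor with 3 and 19 reads.

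**Figure D4:**
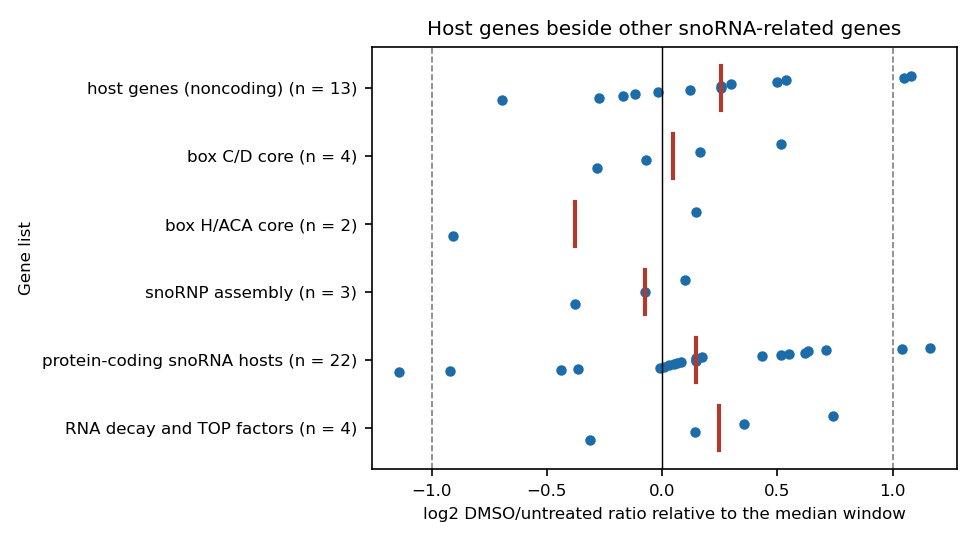
The log2 DMSO/untreated ratio relative to the median window for the genes past the floor in each list (points), with the median of each list as a red bar. The 13 noncoding hosts have a median of 0.26, the 22 protein-coding hosts 0.15, and dashed lines mark 2-fold.

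Markers place these values in their libraries. Of 14 erythroid markers 12 reached 1 CPM in both libraries, among them GATA1, KLF1 and TAL1, and the 8 past the floor all lay below the median window (median -0.49). Of 6 epithelial and hepatocyte markers 1 did. The 12 neural markers held 2 untreated and 970 DMSO reads in all, 0.936 and 233 CPM. Of them 10 were at 0 in the untreated library and none was at 0 in the DMSO library. Most of the DMSO reads came from GFAP (514), MT3 (188), NTRK2 (119) and SYT1 (80), and the other neural markers had 1 to 17 each. The part of the neural markers in the host gene ratios was not tested.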

How the data were processed

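PRO-seq reads of 2 K562 libraries were given by the authors as counts per window of 6000 bases on hg38, with Bowtie2 2.3.5 and featureCounts 2.0.1 named in the submitters' processing notes. The deposited TPM values equalled CPM in all 36814 windows (tolerance 1e-06) and were not used further. The totals were 2136291 untreated and 4154920 DMSO reads, and the median window past the floor held 45 and 205. Counts were scaled with TMM factors (edgeR 4.0.16, R 4.3.3), so that 1 untreated read weighs as much as 3.81 DMSO reads. Log2 ratios used a prior count of 0.5 reads on average, shared out by library size, and were taken relative to the median window past the floor. Own bases were counted against all other windows of either strand, and density was computed from 200 own bases on; the strand setting and read length are not given in the sources used here. Intervals are exact Poisson for counts and Clopper-Pearson for ratios. The procedure was tested on simulated data in Python 3.11.15. snoRNAs, gene ends and promoters came from RefSeq (GRCh38.p14); mature RNA that came through the pull-down is not told apart from nascent RNA.

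The members and lists were chosen with earlier results of these data known. Every member is accounted for; each list has its 2 highest and 2 lowest ratios named, and further list members and markers were named after their values were seen. Alternatives covered scaling (library totals, DESeq2 1.42.0, upper quartile), centring, floor, prior count, overlap, the RefSeq start and the fold threshold. The list of lymphoid markers is not reported here.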

Additional observations from a re-analysis of the deposited data

How the results depend on the processing

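No paired analysis was possible because neither group has a second library, and none could be left out. Relative to the median window, the hosts at least 2-fold higher numbered 2 with library totals, DESeq2 and upper quartile factors and with a smaller prior or one of 2 reads. With library totals and no centring 11 of the 13 were higher and the median was 1.53. There the median of all windows past the floor was itself 1.27, past 2-fold, so that count says little of the hosts. At a floor of 20 CPM and 400 reads 0 of 9 hosts were higher. The count was also 0 among windows that hold the RefSeq start, where the median window itself lies higher. The shares of all windows were not computed for these settings. With any read 25 hosts entered, 4 were higher and 5 lower, against 27.7% and 25.2% of the 29285 windows with a read, and the median reversed to -0.14. The 4 were SNHG1, SNHG18, SNHG31 and ZFAS1, with 0 to 3 untreated reads, and SNHG7 and SNHG5 were not among them. At 1.5-fold 1 was lower. All 11 hosts whose windows share no base reached 1 CPM in both libraries, and the share of all such windows was not computed. SNHG19, whose counted bases lie outside its gene, was left out after the data were seen; 12 hosts then had a median of 0.26. Of 163 values of single hosts under other settings 136 stayed within their interval, and 13 of the other 27 were with uncentred library totals. Depth limits the hosts under 100 reads, whose intervals span several-fold.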
